A study of Arabidopsis thaliana with 18 samples.

Results

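The 10 genes described here encode parts of the Arabidopsis cell cycle and DNA replication machinery. They were taken by locus identifier and are the replication genes PCNA1, PCNA2 and MCM2, the D-type cyclins CYCD1;1 and CYCD3;1, the B-type kinases CDKB1;1 and CDKB2;1, the mitotic cyclins CYCB1;1 and CYCB1;2, and KNOLLE. The files list CYCB1;2 as CYC1BAT and KNOLLE as SYP111. All 10 were listed in each of the 18 libraries and all 10 passed the filter on low counts, among 24951 genes listed in any library and 20569 tested.

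RNA sequencing of polyA RNA measured transcripts in wild type Arabidopsis thaliana seedlings, called seedling in the labels and leaf in the series title. The seedlings had been kept on MS medium, a plant nutrient medium, for 7 days in the dark, which leaves them etiolated, that is pale and with closed cotyledons. They were then given light for 0 h (the dark group), 1 h, 2 h, 4 h, 8 h or 12 h, with 3 libraries in each of these 6 groups, and all groups shared genotype, medium and dark period. Among the groups analysed here none stayed dark through the later hours, so light, seedling age and time of day cannot be told apart. The ecotype and the number of seedlings in a library are not given in the sources used here. Nothing says that the libraries of a group came from separate cultures, so p-values measure the spread between these libraries, which may be technical.

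A plant cell enters the cycle when D-type cyclins bind the kinase CDKA;1 and inactivate the retinoblastoma protein RBR1, which frees E2F factors to switch on replication genes. The MCM proteins form the ring-shaped helicase that is loaded at replication origins and unwinds DNA, and PCNA is the sliding clamp that holds DNA polymerase on its template. Later in the cycle the plant-specific B-type kinases and the B1 cyclins drive entry into mitosis, and MYB3R factors control many of their genes through the mitosis-specific activator (MSA) element. KNOLLE is a syntaxin, a membrane fusion protein of the cell plate that separates daughter cells. In dark-grown seedlings the shoot apex is largely at rest, and light is known to start cell division and leaf growth there.

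Depth was even, with 22408394 to 22760811 summed expected counts (estimated reads) in 17 libraries and 20072467 in 8 h replicate 3. Over all tested genes the spread between replicates was widest in the dark and 2 h groups, where the median SD was 0.279 and 0.267 on the log2 CPM scale (counts scaled to library size), against 0.145 to 0.212 in the other groups. For the 10 genes the median SD was widest at 2 h (0.481), then at 8 h (0.42) and in the dark (0.387), against 0.245 to 0.318 in the other groups. Among the 2 h libraries replicate 3 was the lowest for each of the 10 genes, and the main counts are also given without it and 0 h replicate 3. Levels are given as FPKM, fragments scaled to gene length and library size, which can be compared between genes, and the values of a group follow the order of replicates 1, 2 and 3.

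The transcripts of most of these genes were highest at 2 h of light. 9 of the 10 had their highest mean FPKM there, against 30.1% of all tested genes, and CYCD1;1 was highest at 8 h. By edgeR's quasi-likelihood test, at a Benjamini-Hochberg adjusted p under 0.05, 7 of the 10 were higher at 2 h than in the dark, all but CYCB1;1 and the D-type cyclins, and 0 were lower. Of all tested genes 25.7% were called higher and 21.3% lower in that comparison, 47.0% in all. Compared with 1 h, 8 of the 10 were higher at 2 h, all but CYCD1;1 and CDKB2;1, beside 28.3% of all tested genes. At 4 h 8 were lower than at 2 h, all but the D-type cyclins, beside 12.6% of all tested genes. Without 0 h replicate 3 and 2 h replicate 3, which was tried after the data had been seen, these 3 counts were 8, 9 and 9. More of all tested genes were also called at 2 h against the dark in that fit than with all 18 libraries. For each of the 10 genes 2 h replicate 3 was the lowest 2 h library, so leaving it out raises the 2 h mean. The higher counts thus depend on the choice of library, and why they rose was not tested. The count of 8 at 4 h against 2 h was 5 when 2 h replicate 1, 2 h replicate 2, 4 h replicate 1 or 4 h replicate 2 was left out, with CYCB1;1 and both kinase genes lost each time. Both neighbouring comparisons use the same 2 h libraries, so an error in the 2 h mean enters both with opposite sign.

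At the other times no gene of the 10 was called against the dark. By the same edgeR test, 0 of the 10 differed from the dark at 1 h, 4 h, 8 h or 12 h, while 10.9%, 44.1%, 48.3% and 47.4% of all tested genes did in either direction. At an unadjusted p under 0.05 there was 1 gene each at 1 h and 4 h (CYCD1;1 in both), 1 at 8 h (MCM2) and 0 at 12 h, and DESeq2 called 0, 1, 0 and 0 of the 10. The log2 fold changes against the dark spanned 0.00 (CYCB1;2) to 1.09 (PCNA1) at 8 h and -0.53 (CYCB1;2) to 0.34 (CYCD3;1) at 12 h. At 8 h 1 of the 10, CYCD1;1, was higher than at 4 h, beside 6.57% of all tested genes. Between 12 h and 8 h edgeR called 0 of the 10 and 0.0% of all tested genes. 1 of the 10, CDKB2;1, had an unadjusted p under 0.05 there, and DESeq2 called 0 of the 10. In the test over all 6 groups 9 of the 10 passed, all but CYCB1;1 (adjusted p 0.0959, edgeR's quasi-likelihood F test with Benjamini-Hochberg adjustment), beside 75.0% of all tested genes.

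**Figure D1:**
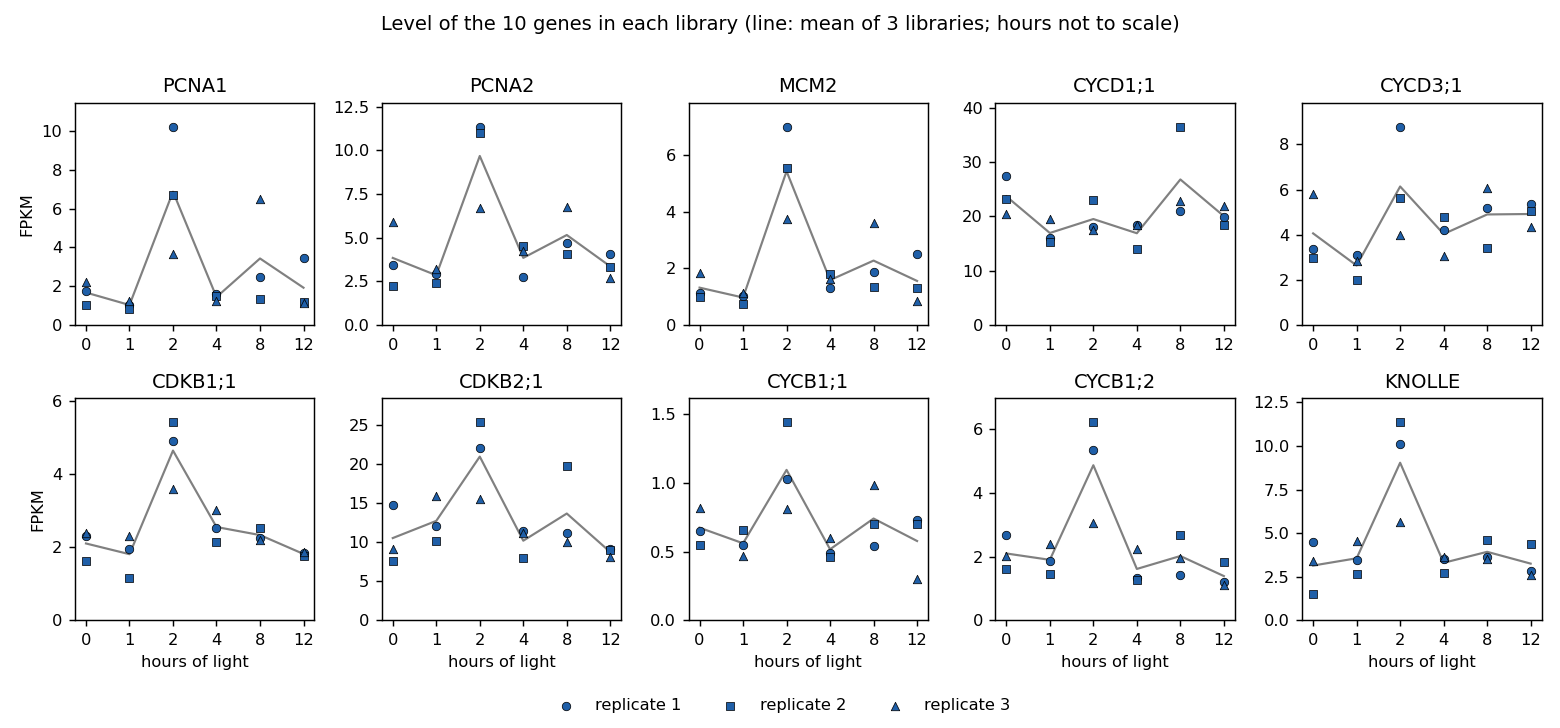
FPKM (y axis, from 0, a scale for each gene) against hours of light (x axis, not to scale) for the 10 genes, with a symbol for each of the 3 replicates and a line through the group means. All genes but CYCD1;1 have their highest mean at 2 h, and replicate 3 is the lowest of the 3 libraries at 2 h in every panel.

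Markers of particular organs were read beside the 2 h values, and whether they had a part in these changes was not tested. The 8 root markers (stem cell, endodermis and root hair genes) summed to 51.1 to 59.6 FPKM at 2 h, against 29.8 to 33.3 FPKM in the dark. Most of that sum came from SCR (37.0 ± 4.86 FPKM at 2 h against 18.7 ± 0.300 FPKM in the dark, SD, n = 3 each), which edgeR called higher, and SHR (14.9 FPKM at 2 h against 11.8 FPKM in the dark on average). The other 6 root markers each averaged under 2 FPKM at every time. The root hair genes EXP7 and COBL9 were high in the 2 h group alone, through which they passed the filter on low counts, so their calls are not counted here. EXP7 had 18 to 26 counts at 2 h, against 0 to 1 in the dark, and COBL9 29 to 63 counts at 2 h, against 0 to 1 in the dark. At 4 h they had 0 to 4 and 0 to 3 counts. The 12 shoot apex and young leaf markers summed to 107 to 137 FPKM at 2 h, against 87.6 to 120 FPKM in the dark. Of the 9 tested, 1 was higher and 1 lower at 2 h than in the dark, with a median log2 fold change of -0.07, so neither share was above that of all tested genes. ANT, a growth regulator of young organs, was higher at 2 h and STM, which maintains the shoot meristem, was lower (3.36 ± 1.30 FPKM at 2 h against 6.66 ± 2.15 FPKM in the dark, SD, n = 3 each). KNAT1, a homeobox gene of the stem and apex, had 79.45, 95.0 and 53.02 FPKM at 2 h, against 50.5, 58.47 and 39.15 FPKM in the dark. These libraries overlapped, and replicate 3 was the lowest of both groups. The 6 stomatal lineage markers summed to 7.75 to 14.7 FPKM at 2 h, against 3.85 to 10.7 FPKM in the dark, with 2 of 6 called higher (SPCH and BASL) and 0 lower, beside 25.7% and 21.3% of all tested genes. At 12 h 5 of the 6 were higher than in the dark and 0 lower, beside 24.1% and 23.3% of all tested genes. The log2 fold changes were 2.44 for EPF2 and 1.60 for SPCH, while STM and CLV1 of the apex list were lower (-1.25 and -0.76) and SCR was higher (0.68). At 1 h the root markers summed to 26.6 to 30.8 FPKM and the shoot apex and young leaf markers to 81.8 to 84.7 FPKM. The stomatal lineage markers summed to 3.14 to 4.9 FPKM there. In each list the 1 h sums were below the lowest 2 h sum. None of the 26 markers was at 0 in all libraries, but the stem cell gene WUS was at 0 in 9 of them and had at most 2 counts. In whole seedlings, more cells that express a gene and more RNA per cell cannot be told apart.

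PCNA1 and MCM2 had the widest range of group means among the 10, 6.7-fold and 5.62-fold between the highest and the lowest. PCNA1 (AT1G07370, chr1:2263037-2264553, forward strand), a sliding clamp gene, had 1.75, 1.04 and 2.22 FPKM in the dark, 1.04, 0.8 and 1.24 at 1 h, 10.24, 6.73 and 3.67 at 2 h, 1.58, 1.5 and 1.23 at 4 h, 2.45, 1.34 and 6.5 at 8 h, and 3.44, 1.18 and 1.14 at 12 h. The 2 h libraries did not overlap those of 0 h, 1 h or 4 h, although they differed among themselves by more than the whole range of the dark group. PCNA1 was 3.96-fold higher at 2 h than in the dark (log2 fold change 1.99, approximate SE 0.53, edgeR adjusted p 0.00619). At 8 h replicate 3 was far above the other libraries of its group, and at 12 h replicate 1 was.

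PCNA2 (AT2G29570, chr2:12649906-12651753, reverse strand), the other clamp gene, had 3.42, 2.2 and 5.89 FPKM in the dark, 2.92, 2.4 and 3.21 at 1 h, 11.36, 11.01 and 6.67 at 2 h, 2.75, 4.51 and 4.26 at 4 h, 4.67, 4.04 and 6.74 at 8 h, and 4.07, 3.31 and 2.67 at 12 h. The lowest 2 h library was above the highest dark library, but just below 8 h replicate 3. It was 2.43-fold higher at 2 h than in the dark (log2 fold change 1.28, approximate SE 0.30, edgeR adjusted p 0.00266). In FPKM, PCNA2 was above PCNA1 on average at every time. Their ratio was smallest at 2 h, where PCNA2 averaged 9.68 ± 2.61 and PCNA1 6.88 ± 3.29 FPKM (SD, n = 3 each) and the libraries overlapped.

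MCM2 (AT1G44900, chr1:16970214-16974753, forward strand), a helicase subunit, had 1.14, 0.97 and 1.84 FPKM in the dark, 1.03, 0.74 and 1.13 at 1 h, 7.01, 5.55 and 3.74 at 2 h, 1.32, 1.8 and 1.63 at 4 h, 1.86, 1.35 and 3.61 at 8 h, and 2.49, 1.31 and 0.86 at 12 h. In FPKM all 3 libraries at 2 h were above each of the 15 other libraries, with the lowest of them, replicate 3, close to 8 h replicate 3. Scaled to log2 CPM, 2 h replicate 3 (3.41) was below 8 h replicate 3 (3.5). MCM2 was 3.89-fold higher at 2 h than in the dark (log2 fold change 1.96, approximate SE 0.38, edgeR adjusted p 0.000709), 5.18-fold higher than at 1 h, and at 4 h it fell by 1.70 on the log2 scale against 2 h (edgeR adjusted p 0.00639). Its 2 h calls against 0 h and 1 h and its 4 h call against 2 h were kept under all 28 alternatives tried.

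Among the 10 genes MCM2 alone had an E2F motif in the 300 bases before its annotated start, which is why its window is shown. The sequence is that of the RefSeq assembly TAIR10.1, chr1:16969914-16970213, forward strand, 5′ to 3′, and capitals mark the motif TTTCCCGC.

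MCM2: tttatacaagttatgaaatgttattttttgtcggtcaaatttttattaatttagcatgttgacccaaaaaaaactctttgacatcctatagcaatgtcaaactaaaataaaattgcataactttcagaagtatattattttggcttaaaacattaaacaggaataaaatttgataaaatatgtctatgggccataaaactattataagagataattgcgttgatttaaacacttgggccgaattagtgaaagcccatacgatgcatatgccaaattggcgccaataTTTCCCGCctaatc

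The first base of the motif lies 14 bases before the start. The search covered TTTCCCGC, TTTGGCGC, TTTCGCGC and TTTGCCGC on both strands, and 1.57% of the 27443 windows of that length before RefSeq genes hold any of them. Among the 19 other licensing and origin factor genes 8 windows held a match, and among the 10 genes here 1 did. The site II motif, TGGGCC or TGGGCT on either strand, was in 6 of the 10 windows, 3 times in that of MCM2, beside 20.8% of all windows. No matches overlapped in the windows of the 10 genes. A match is a description of the letters and says nothing of a factor being bound, and the windows of PCNA1, PCNA2, CYCD3;1 and both kinase genes run into a neighbouring gene.

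The other genes of replication origins and forks were read beside these members. Of 19 other licensing and origin factors, 15 were higher at 2 h than in the dark and 0 lower by edgeR, beside 25.7% and 21.3% of all tested genes. Their median log2 fold change was 1.68, against 0.10 over all tested genes. At 4 h 14 of the 19 were lower than at 2 h, beside 12.6% of all tested genes, and 0 higher, with a median of -1.61. All 5 other subunits of the helicase ring were among those called in both comparisons, with 2 h against 0 h log2 fold changes of 2.11 for MCM3, 1.76 for MCM4, 1.68 for MCM5, 2.05 for MCM6 and 1.86 for MCM7. CDT1A, which loads the helicase, had 5.13, 4.25 and 2 FPKM at 2 h, against 0.97, 0.67 and 1.27 FPKM in the dark. MCM10, a factor of helicase activation, had 1.95, 1.38 and 1.65 FPKM at 2 h, against 0.11, 0.06 and 0.5 FPKM in the dark, where it rested on 2 to 18 counts. Each 2 h library was above every dark library for CDT1A and for MCM10. The helicase subunits were named after their values had been seen, as were CDT1A and MCM10.

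**Figure D2:**
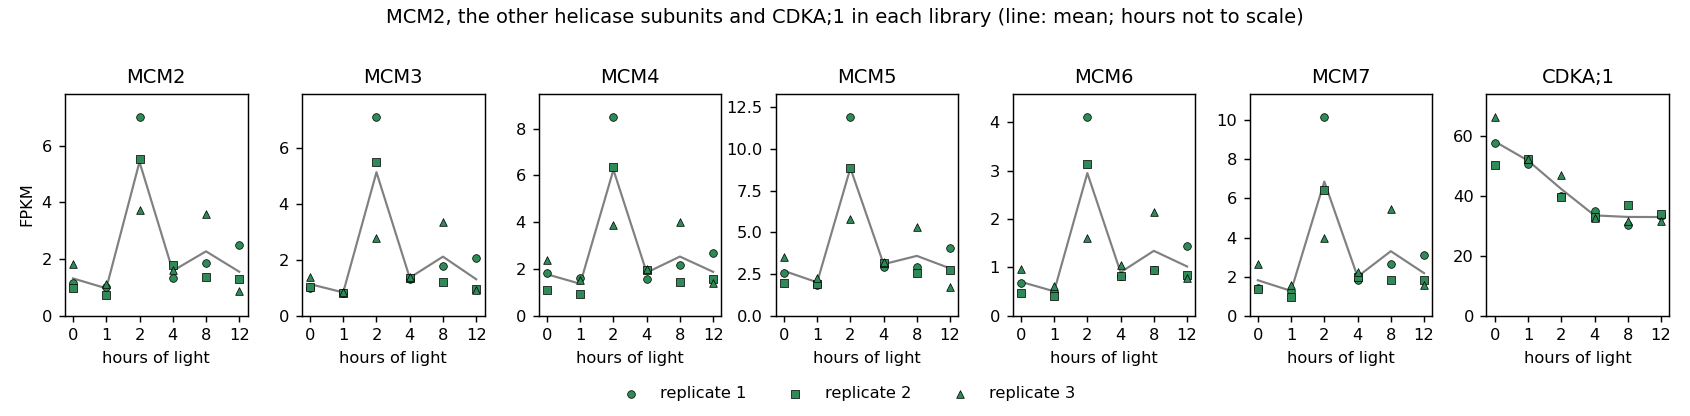
FPKM (y axis, from 0, a scale for each gene) against hours of light (x axis, not to scale) for MCM2, the 5 other helicase subunits and the kinase gene CDKA;1, with a symbol for each replicate and a line through the means. The 6 helicase genes are highest at 2 h, with replicate 1 the highest library, and CDKA;1 is lower at 2 h than in the dark.

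Of 12 fork and nucleotide supply genes 8 were higher at 2 h than in the dark and 0 lower, beside 25.7% and 21.3% of all tested genes. The median log2 fold change of the 12 was 0.79. Members of this list parted ways later. The small subunit genes of ribonucleotide reductase, the enzyme that makes DNA building blocks, were an example: TSO2 averaged 9.09 ± 1.86 FPKM at 4 h against 22.6 ± 6.67 FPKM at 2 h, while RNR2A averaged 18 ± 1.07 FPKM at 4 h against 9.13 ± 1.54 FPKM at 2 h (SD, n = 3 each). The edgeR adjusted p of 4 h against 2 h was 0.00474 for TSO2 and 0.0117 for RNR2A (Benjamini-Hochberg). At 12 h 24.1% of all tested genes were called higher and 23.3% lower than in the dark, and RNR2A was still 3.91-fold and the DNA ligase gene LIG1 1.95-fold above the dark, and 3 of the 12 genes were called higher. Among the licensing factors 3 of 19 were higher at 12 h, with CDC6A, a helicase loader, 2.73-fold and the origin subunit ORC5 1.38-fold above the dark.

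Neither D-type cyclin was called higher at 2 h than in the dark. CYCD1;1 (AT1G70210, chr1:26439556-26443007, forward strand) had 27.4, 23.21 and 20.38 FPKM in the dark, 16.01, 15.22 and 19.53 at 1 h, 18.05, 23.03 and 17.38 at 2 h, 18.43, 13.88 and 18.31 at 4 h, 20.96, 36.5 and 22.87 at 8 h, and 19.78, 18.4 and 21.88 at 12 h. Its 4 h libraries all lay below the dark libraries, and 8 h replicate 2 was far above all others. The 8 h level was 1.67-fold above that at 4 h (log2 fold change 0.74, approximate SE 0.21, edgeR adjusted p 0.0324). Without 8 h replicate 2 it was 0.43 on the log2 scale (edgeR adjusted p 0.127), and the call was also lost when any 1 of the 3 libraries of 4 h was left out and with the replicate number as a block. At 4 h against the dark the log2 fold change was -0.51 (edgeR adjusted p 0.0577). DESeq2 put this past the threshold (adjusted p 0.0368), as did edgeR without 0 h replicate 3 (0.0225) or without 8 h replicate 2 (0.0186).

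CYCD3;1 (AT4G34160, chr4:16357421-16359565, forward strand), a D-type cyclin known to respond to cytokinin and to keep cells dividing, had 3.38, 2.97 and 5.82 FPKM in the dark, 3.08, 1.99 and 2.83 at 1 h, 8.79, 5.63 and 3.99 at 2 h, 4.22, 4.8 and 3.07 at 4 h, 5.19, 3.41 and 6.09 at 8 h, and 5.38, 5.05 and 4.32 at 12 h. The 2 h libraries lay above those of 1 h but overlapped those of the dark, where replicate 3 was high. Against 1 h it was 2.15-fold higher at 2 h (log2 fold change 1.10, approximate SE 0.30, edgeR adjusted p 0.00724), and without 2 h replicate 1 this call was lost (adjusted p 0.0584). Against the dark its log2 fold change was 0.54 (edgeR adjusted p 0.143). Without 2 h replicate 3 it was 0.78 (edgeR adjusted p 0.0323), and without 0 h replicate 3 0.81 (edgeR adjusted p 0.0409).

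Among the 7 tested of the other D-type cyclins, 5 were higher at 2 h than in the dark and 0 lower, beside 25.7% and 21.3% of all tested genes. All 7 had their highest mean at 2 h, against 30.1% of all tested genes. Among them CYCD4;1 and CYCD4;2 had only 1 to 40 and 2 to 30 counts. Genes so low may pass the filter through the group where they are high, so their peak is weak evidence. At 12 h 3 of the 7 were higher than in the dark, beside 24.1% of all tested genes. Among them were the CYCD3;1 relatives CYCD3;3, 1.69-fold, and CYCD3;2, 1.61-fold. CYCD3;2 had the higher FPKM of this pair, 29.9 ± 3.90 at 12 h against 19.4 ± 5.93 in the dark (SD, n = 3 each). Of the 9 RBR1, E2F and DP genes, which act just after these cyclins, 5 were higher at 2 h than in the dark and 0 lower. RBR1 itself averaged 19.9 ± 0.814 FPKM at 2 h against 13 ± 0.713 FPKM in the dark, and 10.3 ± 0.571 FPKM at 12 h against the same dark level (SD, n = 3 each), and edgeR called both.

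CDKA;1, the kinase of the D-type cyclins, moved the other way. It averaged 42.2 ± 4.14 FPKM at 2 h and 32.9 ± 1.29 FPKM at 12 h, against 58.0 ± 7.89 FPKM in the dark (SD, n = 3 each), with log2 fold changes of -0.54 and -0.77 (edgeR adjusted p 0.000258 and 8.33e-06). No 2 h or 12 h library reached the lowest dark library.

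Both B-type kinase genes were higher at 2 h than in the dark. CDKB1;1 (AT3G54180, chr3:20059671-20061488, forward strand), whose kinase acts from S phase into mitosis, had 2.3, 1.62 and 2.39 FPKM in the dark, 1.95, 1.17 and 2.31 at 1 h, 4.91, 5.42 and 3.6 at 2 h, 2.52, 2.13 and 3.01 at 4 h, 2.25, 2.54 and 2.21 at 8 h, and 1.83, 1.76 and 1.86 at 12 h. Every 2 h library was above each of the others. The gene was 2.10-fold higher at 2 h than in the dark (log2 fold change 1.07, approximate SE 0.23, edgeR adjusted p 0.00158), and 4 h fell by 0.80 on the log2 scale against 2 h (edgeR adjusted p 0.0216, between 0.00352 and 0.0975 over all edgeR, DESeq2 and limma alternatives).

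CDKB2;1 (AT1G76540, chr1:28720328-28722550, reverse strand), a kinase gene of G2 and mitosis that is needed in the shoot apex, had 14.8, 7.64 and 9.12 FPKM in the dark, 12.11, 10.13 and 15.91 at 1 h, 22.01, 25.33 and 15.45 at 2 h, 11.46, 7.97 and 11.12 at 4 h, 11.22, 19.73 and 10.02 at 8 h, and 9.15, 8.97 and 8.07 at 12 h. Its lowest 2 h library was above the highest dark library in FPKM and below 1 h replicate 3 and 8 h replicate 2. Scaled to log2 CPM, the 2 h and dark groups overlapped. The gene was 1.88-fold higher at 2 h than in the dark (log2 fold change 0.91, approximate SE 0.29, edgeR adjusted p 0.0163). This call was lost when 0 h replicate 2, 0 h replicate 3, 2 h replicate 1 or 2 h replicate 2 was left out. It was also lost with only the groups compared in the fit (edgeR adjusted p 0.0683). Against 1 h the log2 fold change was 0.60 (edgeR adjusted p 0.0922). Among the 10 genes, CDKB2;1 and CYCD1;1 had the highest mean FPKM at every time.

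The closest relatives of both kinase genes were also called higher at 2 h. CDKB1;2 averaged 2.77 ± 0.692 FPKM at 2 h against 0.880 ± 0.459 FPKM in the dark, and CDKB2;2 3.74 ± 0.926 FPKM at 2 h against 1.77 ± 0.299 FPKM in the dark (SD, n = 3 each). Of all 10 other kinase and activator genes 6 were higher and 2 lower, the lower being CDKA;1 and CDKF;1. CDKD;3, which belongs to the kinases that activate other CDKs, was 2.38-fold above the dark at 12 h and CDKF;1 0.783-fold its dark level (edgeR adjusted p 4.76e-05 and 0.0191). Of the CDK inhibitor genes 3 of 16 were higher and 3 lower at 2 h than in the dark, no more than the 25.7% and 21.3% of all tested genes. KRP2 had 30.39, 42.36 and 11.56 FPKM at 2 h, against 6.59, 5.9 and 3.49 FPKM in the dark (log2 fold change 2.30, edgeR adjusted p 0.000205), while KRP1 averaged 15.5 ± 3.53 FPKM at 2 h against 25.2 ± 0.391 FPKM in the dark (SD, n = 3 each). At 12 h 0 of the 16 were higher and 5 lower, beside 24.1% and 23.3% of all tested genes. Among the lower were SIM, an inhibitor of mitosis in endoreplicating cells, at 0.493-fold and KRP1 at 0.509-fold their dark level. SIM had 60.92, 58.52 and 62.02 FPKM at 12 h, against 141.03, 151.21 and 82.73 FPKM in the dark, and no 12 h library reached the lowest dark library. The genes named here for 2 h were chosen after their values had been seen.

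**Figure D3:**
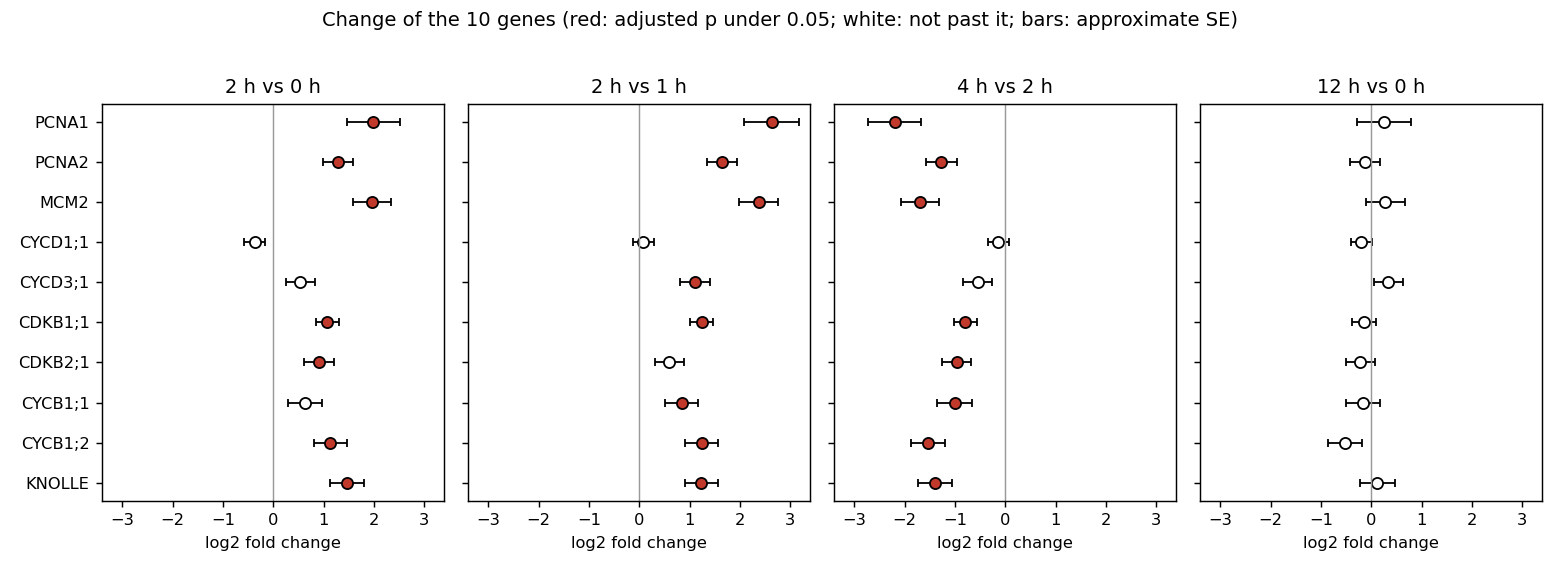
Log2 fold change (x axis) of the 10 genes (rows) in 4 comparisons, with bars for the approximate SE, red where edgeR's adjusted p was under 0.05 and white where it was not. Red points lie right of 0 at 2 h against 0 h (7 genes) and against 1 h (8 genes), left of 0 at 4 h against 2 h (8 genes), and there are none at 12 h against 0 h.

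Of the mitotic cyclins, CYCB1;1 had the lowest mean FPKM of the 10 genes at every time. CYCB1;1 (AT4G37490, chr4:17621886-17624308, reverse strand), widely used as a marker of cells in G2 and mitosis, had 0.65, 0.55 and 0.82 FPKM in the dark, 0.55, 0.66 and 0.47 at 1 h, 1.03, 1.44 and 0.81 at 2 h, 0.49, 0.46 and 0.6 at 4 h, 0.54, 0.7 and 0.98 at 8 h, and 0.73, 0.7 and 0.3 at 12 h. These values rest on 11 to 53 counts, and 2 h replicate 3 lay just below the highest dark library. Against the dark the 2 h log2 fold change was 0.63 (approximate SE 0.33, edgeR adjusted p 0.132). Against 1 h it was 0.84 (edgeR adjusted p 0.0478), and this call changed in 22 of 28 alternatives, with adjusted p between 0.0192 and 0.207 over edgeR, DESeq2 and limma. At 4 h it fell by 1.01 on the log2 scale against 2 h (edgeR adjusted p 0.04), a call lost in 9 of the 28 alternatives.

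CYCB1;2 (AT5G06150, chr5:1859279-1861703, reverse strand), its close relative, had 2.69, 1.61 and 2.01 FPKM in the dark, 1.86, 1.45 and 2.4 at 1 h, 5.34, 6.23 and 3.06 at 2 h, 1.33, 1.27 and 2.25 at 4 h, 1.44, 2.68 and 1.95 at 8 h, and 1.22, 1.85 and 1.11 at 12 h. Each 2 h library was above all others in FPKM. Scaled to log2 CPM, 2 h replicate 3 (2.3) was just below 8 h replicate 2 (2.32). The gene was 2.20-fold higher at 2 h than in the dark (log2 fold change 1.13, approximate SE 0.33, edgeR adjusted p 0.0107). The call was lost without 0 h replicate 2 or 2 h replicate 2, and with only the groups compared in the fit (edgeR adjusted p 0.052). At 4 h it fell by 1.53 on the log2 scale against 2 h (edgeR adjusted p 0.00598). Its level at 12 h, 1.39 ± 0.399 FPKM, was its lowest mean, against 2.10 ± 0.546 FPKM in the dark (SD, n = 3 each, log2 fold change -0.53, edgeR adjusted p 0.211).

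The windows before these cyclin genes were the windows among the 10 that held the MSA core CNAACGG, so they are shown. Both are from TAIR10.1, reverse strand, 5′ to 3′, at chr4:17624309-17624608 for CYCB1;1 and chr5:1861704-1862003 for CYCB1;2, and capitals mark matches on either strand.

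CYCB1;1: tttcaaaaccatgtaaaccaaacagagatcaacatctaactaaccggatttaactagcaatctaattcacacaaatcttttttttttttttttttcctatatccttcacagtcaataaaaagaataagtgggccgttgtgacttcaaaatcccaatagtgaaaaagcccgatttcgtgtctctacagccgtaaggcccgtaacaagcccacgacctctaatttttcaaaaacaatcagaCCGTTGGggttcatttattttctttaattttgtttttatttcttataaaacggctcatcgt
CYCB1;2: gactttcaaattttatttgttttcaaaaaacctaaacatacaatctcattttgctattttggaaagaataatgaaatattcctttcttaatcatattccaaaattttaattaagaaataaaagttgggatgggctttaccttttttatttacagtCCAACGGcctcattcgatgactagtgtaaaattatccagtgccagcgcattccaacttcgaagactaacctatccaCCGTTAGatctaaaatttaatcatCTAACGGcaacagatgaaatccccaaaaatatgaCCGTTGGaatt

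The CYCB1;1 window held 1 match, whose first base is 61 bases before the start, and the CYCB1;2 window held 4, at 145, 69, 45 and 11 bases. An MSA core was in 5.24% of the 27443 windows. It was in 5 of the 7 windows of other B-type cyclin genes and in 8 of 22 windows of spindle, kinetochore and cytokinesis genes. KNOLLE and both kinase genes had none in these letters within this window.

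KNOLLE (AT1G08560, chr1:2709525-2711000, reverse strand) had 4.49, 1.54 and 3.41 FPKM in the dark, 3.48, 2.64 and 4.57 at 1 h, 10.1, 11.37 and 5.66 at 2 h, 3.55, 2.73 and 3.63 at 4 h, 3.66, 4.6 and 3.54 at 8 h, and 2.81, 4.36 and 2.6 at 12 h. All 2 h libraries were above every other library, and the dark replicates 1 and 2 differed most among the rest. It was 2.76-fold higher at 2 h than in the dark (log2 fold change 1.46, approximate SE 0.34, edgeR adjusted p 0.00237), 2.34-fold higher than at 1 h, and fell by 1.39 on the log2 scale at 4 h against 2 h (edgeR adjusted p 0.00936). KNOLLE shares 464 bases of its locus with NPQ1, a xanthophyll cycle gene on the opposite strand, and how the authors' counting treated strand is not given in the sources used here. NPQ1 took another course, with log2 fold changes against the dark of 0.18 at 2 h and 2.05 at 12 h, against 0.12 for KNOLLE at 12 h.

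Genes that act beside the mitotic members were also high at 2 h. For scale, 25.7% of all tested genes were called higher and 21.3% lower at 2 h than in the dark. Of the 7 other B-type cyclins 5 were higher at 2 h than in the dark and 0 lower (median log2 fold change 1.01). At 4 h 6 of these 7 were lower than at 2 h, beside 12.6% of all tested genes. Of the 9 tested A-type cyclins 4 were higher at 2 h and 0 lower, and at 12 h CYCA3;2 was lower than in the dark (0.7-fold). Of the 22 spindle, kinetochore and cytokinesis genes 12 were higher and 1 lower at 2 h than in the dark. The lower gene was KEULE, whose protein binds KNOLLE at the cell plate, with 41.6 ± 2.29 FPKM at 2 h against 67.6 ± 7.97 FPKM in the dark (SD, n = 3 each), and it was also lower at 12 h (0.604-fold). HINKEL, a kinesin of the phragmoplast, the structure that builds the cell plate, averaged 2.33 ± 1.04 FPKM at 2 h against 0.623 ± 0.333 FPKM in the dark (SD, n = 3 each). At 12 h 4 of the 22 were higher and 1 lower than in the dark, beside 24.1% and 23.3% of all tested genes. Neither share was above that of all tested genes. RUK, which encodes a kinase-like protein of cytokinesis, was 2.60-fold and the spindle checkpoint gene BUB3.1 1.84-fold above the dark.

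Regulators of mitotic transcription and exit gave a mixed picture. Of all tested genes 25.7% were called higher and 21.3% lower at 2 h than in the dark, and 24.1% and 23.3% at 12 h. MYB3R4, an activator of mitotic genes, averaged 2.46 ± 0.737 FPKM at 2 h against 0.790 ± 0.157 FPKM in the dark, and MYB3R3, a repressor, 5.64 ± 0.583 FPKM at 2 h against 7.25 ± 0.670 FPKM in the dark (SD, n = 3 each), and edgeR called both. Of the 5 genes of this list, 3 were higher and 1 lower at 2 h than in the dark, and 2 were higher (TSO1 and MYB3R1) and 2 lower (MYB3R3 and MYB3R5) at 12 h. Of the 5 activators of APC/C, the ligase that marks mitotic cyclins for destruction, 3 were higher at 2 h than in the dark and 0 lower. CDC20.2 and CCS52B of that list were lower at 12 h than in the dark, at 0.458-fold and 0.584-fold. Of 10 DNA damage response genes 3 were higher and 1 lower at 2 h. The higher share was near that of all tested genes and the lower share was below it. At 12 h PARP2 was 4.15-fold and PARP1 1.82-fold above the dark while GMI1 (0.592-fold) and ATM (0.61-fold) were lower. The 6 reference genes had 0 higher and 2 lower at 2 h than in the dark (median log2 fold change -0.13).

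**Figure D4:**
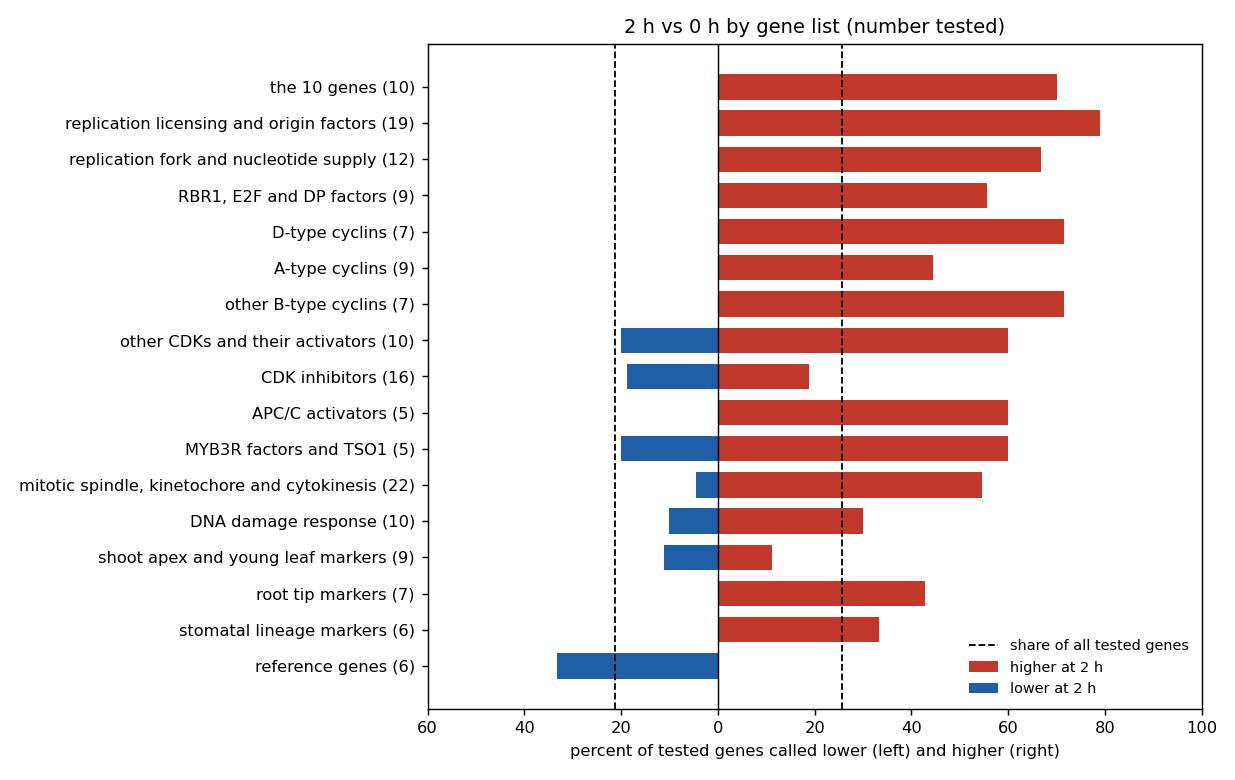
Percent of the tested genes of each list (rows, number tested in brackets) called higher (right, red) or lower (left, blue) at 2 h than at 0 h by edgeR at an adjusted p under 0.05, with dashed lines at the shares of all tested genes, 25.7% higher and 21.3% lower. The 10 genes and the licensing factors reach 7 of 10 and 15 of 19, and CDK inhibitors have 3 of 16 on either side.

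Patterns over the 18 libraries were then compared on the log2 CPM scale, as a description, since the libraries of a group share their condition. The 5 genes most like MCM2 among all tested genes were the other helicase subunits MCM5, MCM7, MCM4, MCM3 and MCM6, with Pearson's r between 0.961 and 0.984. The 5 most like KNOLLE had r between 0.956 and 0.97 and were AT1G72250 and AT3G20150, annotated as kinesins, AT5G60930, HINKEL and the A-type cyclin CYCA1;1. The 5 most like CYCD3;1, with r between 0.922 and 0.957, were GAMMA_CA3, AT3G20390, iqd21, AT3G13560 and AT5G20080, and 0 of them was on a list of cell cycle genes used here.

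Within the groups 7 of the 10 genes were put into a pair of sets, which were drawn up after the values had been seen. For this, each library's deviation from its group mean in log2 CPM was correlated between genes over the 18 libraries. The replication genes PCNA1, PCNA2 and MCM2 deviated together, with Pearson's r of 0.71 to 0.92 over their 3 pairs. So did CYCB1;2, CDKB1;1, CDKB2;1 and KNOLLE, with r of 0.72 to 0.82 over 6 pairs. Between the sets r was only -0.15 to 0.41 over 12 pairs. CYCD3;1 went with the replication genes (0.7 to 0.74) and less with the second set (-0.15 to 0.26), while CYCD1;1 had its highest r, 0.83, with CDKB2;1 and negative r with the replication genes (-0.43 to -0.35). CYCB1;1 was in neither set, and this mitotic cyclin had r of 0.44 to 0.57 with the replication genes, against 0.04 with CDKB1;1, 0.12 with CDKB2;1, 0.33 with KNOLLE and 0.44 with CYCB1;2.

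Replicate 1 was the highest of the 2 h libraries for PCNA1, PCNA2, MCM2 and CYCD3;1, and replicate 2 for the 6 other genes. At 8 h replicate 3 was the highest for PCNA1, PCNA2, MCM2, CYCD3;1 and also the mitotic cyclin CYCB1;1. Replicate 2 was the highest there for KNOLLE, both kinase genes, CYCB1;2 and CYCD1;1. The 5 other helicase subunits were highest in 8 h replicate 3 as well, as MCM7 shows, with 5.44 FPKM there against 2.64 and 1.82 FPKM in the other 8 h libraries. The root hair regulator RHD6 was also highest in 8 h replicate 3, at 2.17 FPKM against 0.62 and 0.47 FPKM in the others of that group. At 2 h, however, RHD6 had 1.55, 0.97 and 2.55 FPKM and was highest in replicate 3, where MCM2 and the other helicase subunits were lowest. Of the other root markers, SCR had 29.52, 24.57 and 29.81 FPKM at 8 h. EXP7 and COBL9 had only 0 to 5 and 0 to 4 counts there. Whether these libraries differ in their tissue or in the state of their cells was not tested.

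**Figure D5:**
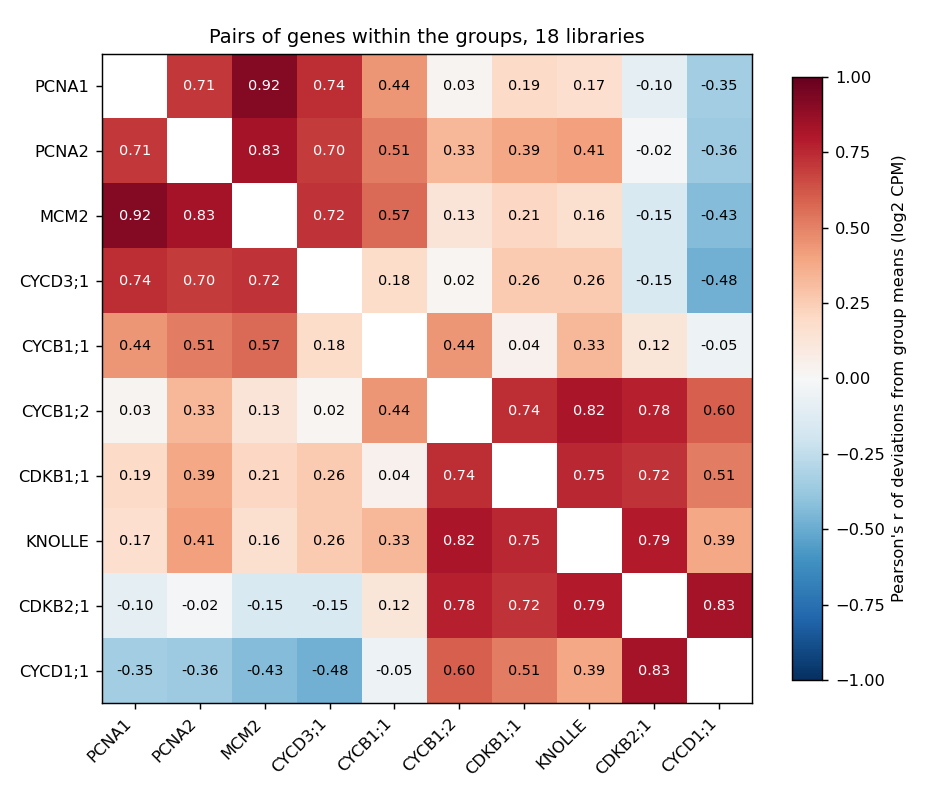
Pearson's r, coloured from -1 (blue) to 1 (red) and printed, between the deviations of each pair of the 10 genes (rows and columns) from their group means in log2 CPM over 18 libraries. PCNA1, PCNA2, MCM2 and CYCD3;1 form a red block at the top left, with r of at least 0.7, and CYCB1;2, KNOLLE and both kinase genes another further down, with r of at least 0.72.

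The 10 genes were also ordered by their mean FPKM at each time. In the dark CYCD1;1 (23.7 ± 3.53 FPKM) and CDKB2;1 (10.5 ± 3.78 FPKM) led, without overlap between them or with the next gene (SD, n = 3 each). CYCD3;1, PCNA2, KNOLLE, CDKB1;1, CYCB1;2, PCNA1 and MCM2 followed, between 4.06 and 1.32 FPKM on average, with each gene's libraries overlapping those of the next in order. CYCB1;1 came last at 0.673 ± 0.137 FPKM (SD, n = 3) and lay below all libraries of MCM2. At 2 h CDKB2;1 and CYCD1;1 overlapped, at 20.9 ± 5.03 and 19.5 ± 3.09 FPKM (SD, n = 3 each), and by rank PCNA1 was number 5 and MCM2 number 7 of the 10 at 2 h, against 8 and 9 in the dark.

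Counting could touch some of these levels. PCNA2 shares 279 bases of its locus with ENOC, CDKB1;1 71 bases with AT3G54190, CDKB2;1 44 bases with AT1G76530 and CYCD3;1 40 bases with AT4G34150. AT4G34150, on the same strand as CYCD3;1, was at 72.3 ± 20.6 FPKM at 2 h against 33.7 ± 3.15 FPKM in the dark (SD, n = 3 each), with log2 fold changes against the dark of 1.18 at 1 h and 1.63 at 4 h, where CYCD3;1 had -0.56 and -0.01. CYCB1;2, KNOLLE and PCNA2 had fractional counts in all 18 libraries. Such counts arise where reads fit more than 1 gene or transcript. MCM2 and CYCB1;2 have a pair of listed transcripts each, and the split between them was uneven from library to library. The deposited transcript table gave the transcript AT1G44900.1 of MCM2 140.61, 28.12 and 28.12 of the gene's 495, 387 and 262 counts in the 2 h libraries, so no value is given by transcript.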

How the data were processed

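Total transcript levels were measured in 18 libraries of polyA RNA sequenced on a BGISEQ-500. The authors deposited expected counts (estimated reads, not whole for every gene) and FPKM per gene for each library. RSEM, Bowtie2 and HISAT2 are named in the submitters' processing notes without role or version. Strand setting, build and annotation are not given in the sources used here. Libraries follow the labels' replicate numbers, which differ from those in the file names at 0 h and 2 h.

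Expected counts were rounded and tested with edgeR 4.0.16 in R 4.3.3 (filterByExpr, TMM, quasi-likelihood test, 1 term per group over all 18 libraries), with Benjamini-Hochberg adjustment over 20569 genes and calls at an adjusted p under 0.05. Approximate SEs were computed as the absolute log2 fold change over the square root of the F statistic. Levels are the deposited FPKM values. Group overlap for counts was judged on log2 CPM with a prior count of 2. The fit was tested on simulated data. Summed counts were 20072467 to 22760811 per library, and errors are the spread between libraries, with no interval for counting error alone.

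Alternatives were RLE factors, library size alone, no filter, DESeq2 1.42.0, only the groups compared, a replicate block, a log2 fold change of at least 1, limma 3.58.1 on log2(FPKM + 1) and log2(FPKM + 0.1), and leaving out each library. The deviations of same-numbered libraries correlated at 0.116, 0.297 and 0.289 for 2 h against 0 h, and at -0.078, -0.332 and -0.388 for 4 h against 0 h. The labels do not say that the numbers pair libraries. The main fit therefore had no block, and the replicate block served as an alternative alone. The fit without 0 h and 2 h replicate 3 was added after the data had been seen.

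The 10 genes and the other gene lists were chosen with earlier results of these data known. Genes outside the 10 were named with values where, in a list, they had the 2 highest or 2 lowest log2 fold changes at 12 h against 0 h among called genes with a mean of at least 1 FPKM. Others named were chosen after their values were seen. Of 175 list genes 174 were listed in the files, and 160 carried the list's name there or in RefSeq. Some tested list genes had few counts, such as CYCB2;1 (3 to 19), CDC6B (0 to 12.47) and SMR5 (listed in 5 libraries). Such genes may have passed the filter through the group where they were high, and the list counts include them. Locus positions were identical to TAIR10.1 of RefSeq for 24733 of 24734 loci, and sequences are from that assembly.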

Additional observations from a re-analysis of the deposited data

How the results depend on the processing

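Over the 10 genes and 9 comparisons, 2520 alternative values of 90 results gave 2439 on the same side of the threshold, 59 that lost a call, 22 that gained one and 0 called values of opposite sign, and 48 uncalled values changed sign. The number of the 10 genes differing at 4 h from 0 h was 1 with RLE factors, 1 with DESeq2 and 1 without 0 h and 2 h replicate 3, against 0 in the fit reported. At 8 h against 0 h it was 2 without 0 h and 2 h replicate 3. At 8 h against 4 h it was 0 with only the groups compared, 0 with the replicate block and 0 where a call also needed a log2 fold change of 1 or more. Leaving out 1 library at a time gave 0 to 0 at 1 h against 0 h, 5 to 8 at 2 h, 0 to 1 at 4 h, 0 to 2 at 8 h and 0 to 0 at 12 h against 0 h. It gave 6 to 9 at 2 h against 1 h, 5 to 9 at 4 h against 2 h, 0 to 1 at 8 h against 4 h, 0 to 0 at 12 h against 8 h and 7 to 9 over all groups. With the replicate block 7 genes were higher at 2 h than at 0 h, 7 at 2 h than at 1 h and 7 lower at 4 h than at 2 h, and 8 passed over all groups. The block changed no call at 2 h against 0 h. The labels do not say that libraries of the same number belong together, in this or any other comparison. Library size alone moved the median log2 fold change of all genes at 2 h against 1 h to 0.246, against 0.115 with TMM. The cause of these differences was not tested. CYCB1;1 rests on 11 to 53 counts per library.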
